A study of Mus musculus with 4 samples.

Results

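The genes described here are 41 enzymes of amino acid breakdown and one-carbon metabolism in mouse liver. They were taken from the deposited tables by symbol, from a list of names, and all 41 were found among the 33639 genes of the tables. By route, 10 of them degrade tyrosine or tryptophan (the aromatic route), 11 handle methionine, betaine, homocysteine, cysteine and taurine (the sulfur route) and 8 degrade leucine, isoleucine or valine (the branched-chain route). The other 12 act on proline, lysine, glycine, histidine or the amino groups themselves. For each of 4 genotypes RNA was taken from the liver of 1 male, so there were 4 libraries: wild type (WT), a global knockout (KO) of Cyp27a1, a global KO of Cyp3a, and a mouse with both deletions (DKO). The labels write the second gene with the human symbol, Cyp3a4. All 4 mice were fed chow freely, housed in groups and given no treatment, and neither strain nor age is given in the sources used here. The series addressed bile acid synthesis after these deletions.

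The liver is the main site where surplus amino acids are broken down. Aromatic amino acids are opened by dioxygenases, and the tryptophan branch also feeds the synthesis of NAD. Methionine is turned into S-adenosylmethionine, the general methyl donor. What remains after the methyl group is given away, homocysteine, is either remethylated with betaine or passed on to cysteine, and cysteine is the source of the taurine that mice join to bile acids. The branched-chain amino acids are oxidised in mitochondria by a dehydrogenase complex and a pair of biotin-dependent carboxylases.

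Each library held between 49745860 and 50378101 estimated counts. Levels are given as CPM, counts per 1000000 after TMM scaling of the library totals, and, where genes are compared with each other, as the authors' TPM, which also divides by transcript length. Where 4 values stand in a row they are in the order WT, Cyp27a1 KO, Cyp3a KO, DKO. Each genotype has 1 library, so what follows compares libraries and carries no p-value. A fold is followed in parentheses by its exact 95% interval from the 2 counts, which holds counting error and not the spread between mice. An enzyme or other gene counted as called when it differed at least 2-fold, with a mean of at least 1 CPM over the 4 libraries and an interval that excluded 1. A mean of 1 CPM was reached by 11743 genes, called measured below, and by all 41 enzymes, whose counts ran from 1077 to 390729 per library.

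The libraries matched their labels. Cyp27a1 stood at 746, 57.6, 727 and 65.3 CPM, and Cyp3a11, the main liver Cyp3a, at 8742, 23706, 0.160 and 4.76 CPM. In bulk tissue, fewer cells of a type and less RNA per cell cannot be told apart. The summed level of 10 hepatocyte markers was 122731, 80266, 84500.1 and 107526 CPM, so on this scale the 3 knockout libraries were all below WT, the DKO least. In TPM the same markers summed to 84038, 62344, 61236 and 93315, so there the DKO was above WT. Markers of Kupffer cells and macrophages summed to 353, 376, 238 and 543 CPM over 12 genes, highest in the DKO. Sums ranged from 252 to 313 CPM for 9 endothelial markers, from 199 to 262 for 10 stellate cell markers, and from 31.5 to 43.6 for 6 cholangiocyte markers. The 5 erythroid markers summed to 608, 448, 286 and 279.9 CPM, with 4 of 5 called lower in both the Cyp3a KO and the DKO against WT. T, NK and B cell markers summed to at most 3.27 CPM over 8 genes and pancreatic acinar markers to at most 8.97 CPM over 5, with Prss2 at 0. Of the 4 kidney tubule markers, Slc12a1 and Kap were at 0 in every library and the sum was at most 0.0402 CPM. Clock genes differed between the libraries as well. The 9 genes that peak with Dbp summed to 199.98, 164, 427 and 445 CPM and the 5 that peak with Arntl to 219, 211, 118 and 56.7 CPM. The Cyp3a KO and the DKO thus stood apart from the other 2 libraries on both lists. They also differed from each other. In the DKO against the Cyp3a KO, log2 folds ran from -2.65 to 2.03 on the first list and from -2.40 to 0.12 on the second. The part of hepatocyte, macrophage or erythroid share or of clock phase in the enzyme differences below was not tested.

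Few of the 41 enzymes differed 2-fold between libraries, and 34 of them were called in no comparison. In the Cyp27a1 KO against WT, 3 enzymes (7.32%) were called higher, Csad, Aldh4a1 and Cth, against 2.44% of all measured genes, and 0 were called lower against 1.36%. In the Cyp3a KO against WT, 1 was called higher, Aldh4a1, against 2.56% of genes, and 0 lower against 1.86%. In the DKO against WT, 1 was called higher, again Aldh4a1, against 6.0% of genes, and 2 lower, Cbs and Tdo2, against 4.02%. The DKO against the Cyp3a KO gave 1 higher, Acmsd, against 4.02%, and 1 lower, Cbs, against 2.70%. The DKO against the Cyp27a1 KO gave 0 higher against 2.84% and 2 lower, Cbs and Got1, against 2.59%. Every comparison with WT rests on the same WT library. Counts of 0 to 3 among 41 are too small to be set apart from these background shares.

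**Figure D1:**
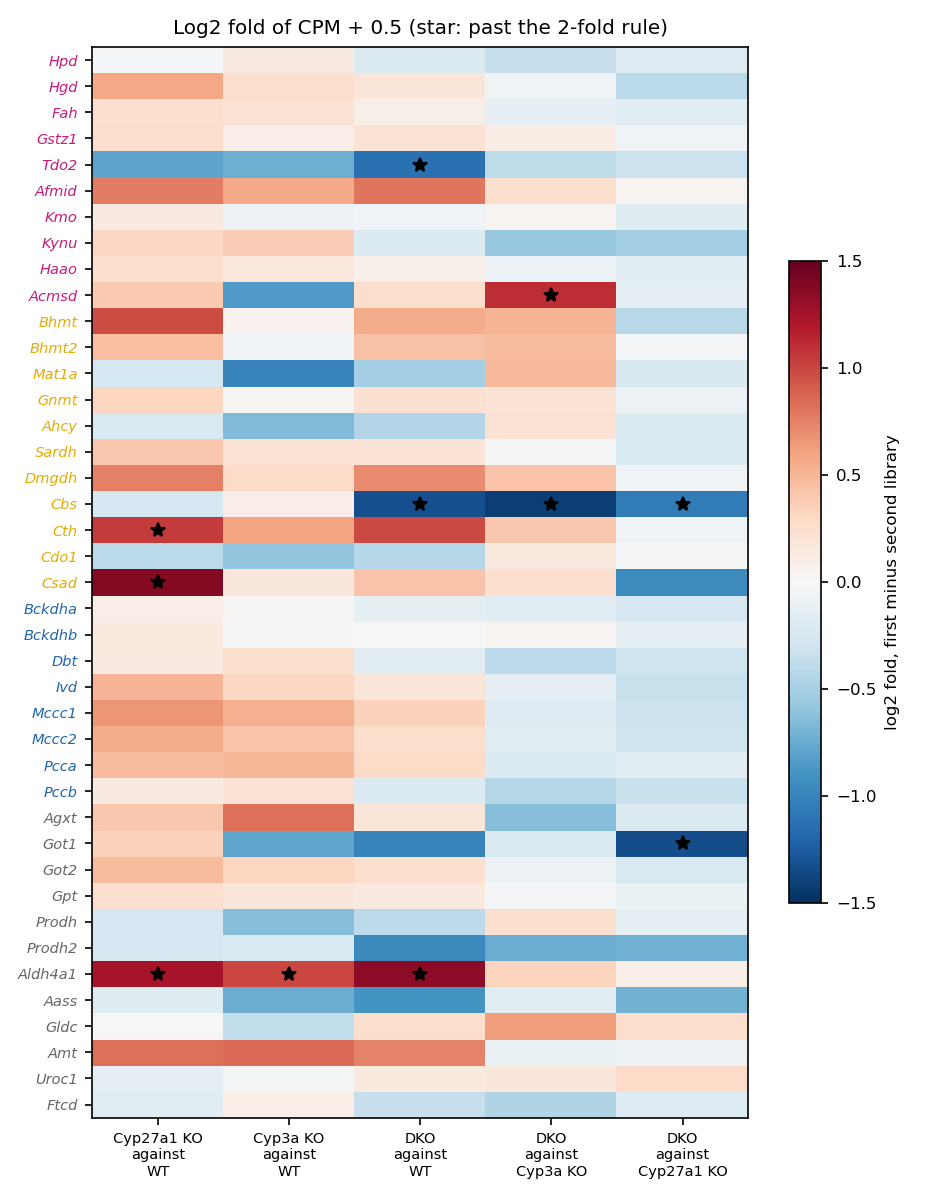
Log2 fold of CPM plus 0.5 for each of the 41 enzymes (rows, label colour by route: aromatic magenta, sulfur yellow, branched-chain blue, other grey) in the 5 comparisons (columns); stars mark genes past the 2-fold rule. Stars are few and sit on Csad, Cth, Aldh4a1, Tdo2, Cbs, Acmsd and Got1, while most of the last column, the DKO against the Cyp27a1 KO, is below 0.

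By length-scaled level the 41 enzymes covered a wide range. Bhmt had the highest mean TPM, at 2169, 4823, 2387 and 4121 TPM, followed by Hpd at 2794, 3042, 3298 and 3070.4 and Gnmt at 2097, 2950.2, 2258 and 3152. The least abundant were Amt at 15.2, 31.9, 30.3 and 32.9 TPM and Mccc1 at 20.4, 37.4, 32.8 and 33.9 TPM. In every library the order of these genes thus spanned more than the differences between libraries. Together the 41 enzymes took 1.99, 2.52, 1.91 and 2.39% of all TPM. The share was larger in the 2 libraries in which Cyp27a1 was deleted than in the other 2. On TPM the median gene was itself above WT, by log2 folds of 0.18, 0.09 and 0.33 in the Cyp27a1 KO, the Cyp3a KO and the DKO. The summed CPM of the 41 enzymes was 30241, 34506, 26252 and 28549.7, so on this scale the DKO was below WT. Summed TPM was 10284, 14498, 9369 and 13860.5 for the sulfur route, 6962, 7187, 6896 and 6975 for the aromatic route and 551, 774, 729 and 712 for the branched-chain route. On TPM the sulfur route thus held most of the difference from WT in the 2 libraries with Cyp27a1 deleted. Bhmt was the largest part of it there. In the Cyp3a KO the sulfur route was below WT, although Bhmt was above it. In CPM the sums were 17321, 21346, 13996 and 17621 for the sulfur route, where the DKO was close to WT, 8122, 7427, 7447 and 6334 for the aromatic route, where the DKO was lowest, and 880.4, 1082, 1032 and 888 for the branched-chain route.

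**Figure D2:**
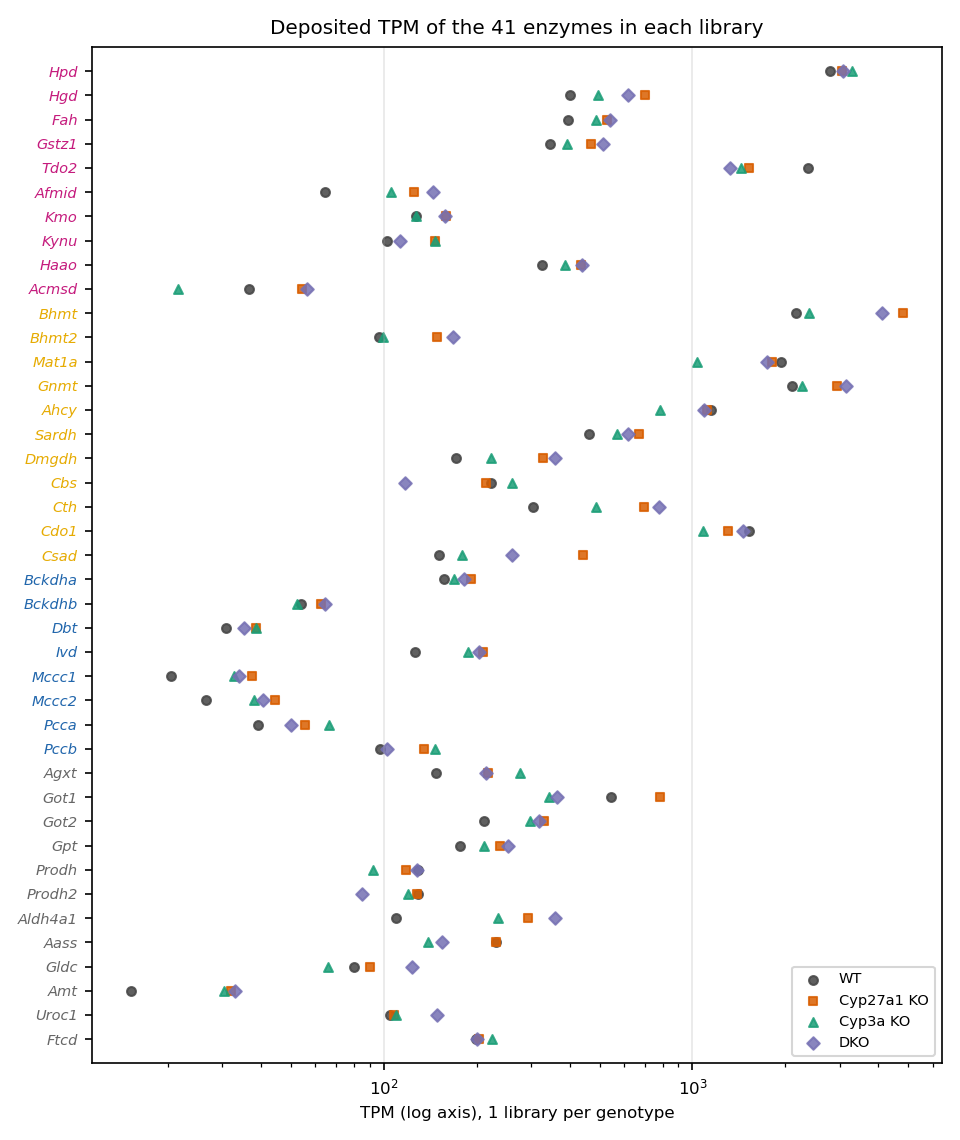
TPM of each enzyme on a log axis, 1 point per library (WT dark grey circle, Cyp27a1 KO orange square, Cyp3a KO green triangle, DKO purple diamond), label colour by route. Levels run from 15.2 TPM for Amt in WT to 4823 TPM for Bhmt in the Cyp27a1 KO, and for most genes the 4 points lie close together on this scale.

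The 4 tyrosine enzymes, which carry hydroxyphenylpyruvate through homogentisate to fumarate and acetoacetate, each stayed within 1.498-fold across the libraries, and none was called in any comparison. Hpd, which makes homogentisate, stood at 2676, 2634, 2934 and 2303 CPM, lowest in the DKO. Hgd, the dioxygenase that opens the homogentisate ring, stood at 479.6, 718, 569 and 542 CPM, and its 1.498-fold (1.47 to 1.52) higher level in the Cyp27a1 KO was the largest fold of the 4 against WT. Gstz1, the isomerase of the next step, stood at 446, 535, 479 and 517 CPM, and Fah, the hydrolase that ends the route, at 480.2, 570.3, 559 and 512 CPM. Both were lowest in WT and highest in the Cyp27a1 KO, by 1.20-fold and 1.19-fold.

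In the tryptophan branch the entry enzyme and the next one differed in opposite directions. Tdo2, the dioxygenase that opens the indole ring (chr3:81957090-81976202, minus strand, mm10), stood at 3088, 1782, 1859 and 1422 CPM. It was lower than WT in all 3 knockouts, 1.73-fold (1.72 to 1.75) in the Cyp27a1 KO, 1.66-fold (1.65 to 1.68) in the Cyp3a KO and 2.17-fold (2.15 to 2.19) in the DKO. Only the DKO value passed the 2-fold rule. It did not pass with library totals in place of TMM (log2 fold -0.92) or on TPM (-0.84). In that comparison the median gene was itself at 0.17 with library totals and at 0.33 on TPM. On TPM recentred on the median gene, chosen after seeing the data, Tdo2 was at -1.17, and with DESeq2 size factors at -1.10. Both of these passed the rule. Afmid, the formamidase that acts next, stood at 117, 199, 173 and 204 CPM, above WT in all 3 knockouts by 1.71-fold, 1.48-fold and 1.75-fold. Of the Afmid transcript sequence, 43.2% in runs of 31 bases also occurs in the readthrough gene Gm20708, which held 1.07 to 2.85 CPM, and 46.6% of its exonic bases overlap another gene, among them Tk1 on the opposite strand. On TPM, Tdo2 was 18.7, 9.60, 11.3 and 8.35 times as abundant as Kmo, the hydroxylase of kynurenine, so the excess of the entry enzyme over Kmo was lower in each knockout library than in WT.

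Farther down the branch, Kmo stood at 275, 303, 258 and 266 CPM, within 1.17-fold across the libraries. Kynu, kynureninase, stood at 186, 231, 240.3 and 162 CPM, above WT in both single knockouts and below it in the DKO. Haao, the dioxygenase that gives the precursor of quinolinate, stood at 293, 347, 328 and 308 CPM and moved by at most 1.18-fold. Acmsd, the decarboxylase that diverts this precursor away from NAD synthesis (chr1:127729413-127767978, plus strand), was the gene of the branch with the widest range. It stood at 81.2, 107, 45.0 and 97.4 CPM, so the Cyp3a KO was the low library, 1.80-fold (1.71 to 1.90) below WT, and the DKO was 2.16-fold (2.06 to 2.28) above the Cyp3a KO. The Acmsd to Haao ratio on TPM was 0.112, 0.125, 0.0556 and 0.128, so the Cyp3a KO again stood apart and the other 3 libraries were close. As Tdo2 made up most of the branch, the 6 tryptophan enzymes summed to 4040.5, 2969, 2904 and 2460.1 CPM, lower in every knockout, although 5 of the 6 were above WT in the Cyp27a1 KO.

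The promoter windows of the called genes with the largest folds against WT, and of the Bhmt pair, are shown because these genes carry the differences between libraries. They come from RefSeq (GRCm38.p6), run from 250 bases before to 50 bases after the start of transcription, are written 5′ to 3′ on the strand of the gene, and carry motif matches in capitals. Windows were found for 35 of the 41 enzymes. Tdo2 (chr3:81975679-81975978, minus strand) is the aromatic gene among those shown, and Aldh4a1 (chr4:139622644-139622943, plus strand) and Got1 (chr19:43524556-43524855, minus strand) belong to none of the 3 routes.
Tdo2: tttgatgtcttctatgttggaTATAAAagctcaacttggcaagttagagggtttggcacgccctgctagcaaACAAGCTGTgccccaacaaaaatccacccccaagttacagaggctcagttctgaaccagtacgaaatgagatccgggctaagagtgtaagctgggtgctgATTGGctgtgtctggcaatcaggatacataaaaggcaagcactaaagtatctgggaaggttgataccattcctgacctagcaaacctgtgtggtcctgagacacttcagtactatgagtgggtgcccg
Aldh4a1: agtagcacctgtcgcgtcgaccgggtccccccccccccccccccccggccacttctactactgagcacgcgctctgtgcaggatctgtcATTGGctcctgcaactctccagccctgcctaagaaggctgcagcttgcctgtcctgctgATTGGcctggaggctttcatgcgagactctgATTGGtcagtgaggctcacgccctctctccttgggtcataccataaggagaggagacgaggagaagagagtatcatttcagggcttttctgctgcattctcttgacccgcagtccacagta
Got1: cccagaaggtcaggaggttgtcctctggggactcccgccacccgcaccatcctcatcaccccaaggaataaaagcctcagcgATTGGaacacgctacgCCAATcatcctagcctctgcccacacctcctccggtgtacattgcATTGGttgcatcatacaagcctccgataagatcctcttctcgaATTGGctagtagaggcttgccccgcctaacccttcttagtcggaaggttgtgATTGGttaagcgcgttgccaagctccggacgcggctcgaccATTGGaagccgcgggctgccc
Positions are counted from the start, with -1 the base before it and 1 the first transcribed base. The Tdo2 window holds TATAAA at -229, ACANNNTGT, the core of the glucocorticoid element, at -178 and CCAAT at -78. Aldh4a1 holds CCAAT 3 times, at -161, -102 and -71, and Got1 holds it 6 times, at -168, -152, -107, -64, -12 and 30.

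The 2 genes of the sulfur route called in the DKO or the Cyp27a1 KO that have windows are Csad (chr15:102205003-102205302, minus strand, the window farther 5′ of 2) and Cbs (chr17:31637156-31637455, minus strand). Bhmt (chr13:93637709-93638008, minus strand) and Bhmt2 (chr13:93674253-93674552, minus strand) are shown as neighbouring paralogs whose levels differ many times.
Csad: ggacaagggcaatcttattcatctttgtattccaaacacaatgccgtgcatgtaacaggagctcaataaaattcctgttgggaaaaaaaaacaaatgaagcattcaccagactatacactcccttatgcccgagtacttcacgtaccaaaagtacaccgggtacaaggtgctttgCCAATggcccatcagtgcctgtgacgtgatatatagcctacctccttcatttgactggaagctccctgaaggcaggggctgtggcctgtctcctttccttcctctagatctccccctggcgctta
Cbs: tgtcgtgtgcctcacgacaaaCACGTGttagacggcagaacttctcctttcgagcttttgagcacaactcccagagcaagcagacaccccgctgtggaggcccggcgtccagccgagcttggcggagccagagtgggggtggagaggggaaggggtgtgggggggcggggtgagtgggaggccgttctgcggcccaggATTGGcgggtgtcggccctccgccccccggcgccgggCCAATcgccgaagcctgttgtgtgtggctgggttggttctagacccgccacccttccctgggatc
Bhmt: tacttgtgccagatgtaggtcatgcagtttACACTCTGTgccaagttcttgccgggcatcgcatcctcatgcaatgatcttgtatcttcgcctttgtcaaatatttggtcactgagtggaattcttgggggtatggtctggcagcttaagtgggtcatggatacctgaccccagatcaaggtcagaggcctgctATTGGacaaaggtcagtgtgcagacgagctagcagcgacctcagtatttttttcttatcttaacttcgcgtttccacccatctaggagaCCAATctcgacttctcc
Bhmt2: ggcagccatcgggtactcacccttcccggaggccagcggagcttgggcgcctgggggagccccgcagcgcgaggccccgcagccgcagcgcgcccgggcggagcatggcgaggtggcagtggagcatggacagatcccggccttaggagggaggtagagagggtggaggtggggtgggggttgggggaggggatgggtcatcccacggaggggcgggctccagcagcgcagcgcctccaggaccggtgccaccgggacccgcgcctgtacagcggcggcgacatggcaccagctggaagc
Csad holds CCAAT at -75. Cbs holds CCAAT at -52 and -15 and the E-box CACGTG at -229. Bhmt holds CCAAT at -56 and 34 and ACANNNTGT at -220, and Bhmt2 holds none of the motifs searched. Bhmt2 and Dmgdh start 131 bases apart on opposite strands, and their windows share 233 bases (chr13:93674253-93674485). Bhmt lies 17759 bases beyond the end of Bhmt2, on the same strand.

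The 35 windows are 1 per enzyme, the farthest 5′ where there were more. The 32851 windows of all genes were not reduced in this way. Across the 35 windows, counted on both strands, CCAAT was found in 20, against 37.4% of all 32851 promoter windows. TATAAA was found in 4, against 13.6% of all windows, CACGTG in 2, against 7.15%, ACANNNTGT in 4, against 6.85%, and TTCNNNGAA, the STAT5 element, in 3, against 8.30%. The D-box TTATGNAA (3.385% of all windows), the ATF4 element ATTGCATCA (0.192%), the C/EBP element TTGCGCAA (0.183%) and the HNF4A element CAAAGTCCA (0.475%) were found in 0 of the 35. None of the matches printed above overlaps another. A match is only these letters, and a window without one says nothing about the factor.

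The sulfur route starts with the use of methionine. Mat1a, which makes S-adenosylmethionine in adult liver, stood at 5122, 4253, 2583 and 3605 CPM, lower than WT in all 3 knockouts and lowest in the Cyp3a KO, by 1.98-fold (1.97 to 1.996), just short of the 2-fold rule. Gnmt, which spends S-adenosylmethionine to methylate glycine, stood at 1536, 1915, 1557 and 1800.0 CPM, highest in the Cyp27a1 KO and within 1.247-fold throughout. Ahcy, which releases homocysteine, stood at 2342, 1994, 1481 and 1727 CPM, with the order of the libraries the same as for Mat1a and the Cyp3a KO 1.58-fold (1.57 to 1.60) below WT. The Ahcy values are uncertain in level, since 71.4% of its transcript sequence also occurs in Gm4737, which held 1571, 1309.5, 942 and 999 CPM. The sum of both genes was lower than WT by about as much, with log2 folds of -0.24, -0.69 and -0.52 in the Cyp27a1 KO, the Cyp3a KO and the DKO.

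On the betaine side, Bhmt, Bhmt2 and Dmgdh were highest in the 2 libraries with Cyp27a1 deleted, none of them past the 2-fold rule on counts, and Sardh did not show this split. On TPM, Bhmt passed the rule in the Cyp27a1 KO and Dmgdh in the DKO. The median gene was itself at a log2 fold of 0.18 and 0.33 on TPM in these comparisons with WT. On TPM recentred on the median gene, neither enzyme passed the rule. Bhmt, which remethylates homocysteine with betaine, stood at 3997, 7846, 4147 and 5885 CPM. Its level was 1.96-fold (1.95 to 1.97) that of WT in the Cyp27a1 KO, 1.47-fold (1.46 to 1.48) in the DKO and 1.04-fold (1.03 to 1.04) in the Cyp3a KO, so the 2 libraries with Cyp27a1 deleted were the high ones. Bhmt2, which uses S-methylmethionine instead, stood at 192, 263, 187 and 260.1 CPM with the same split, 1.37-fold and 1.35-fold above WT. Dmgdh, the mitochondrial enzyme that takes the next methyl group from the dimethylglycine left by Bhmt, stood at 420.4, 712, 513 and 688 CPM, 1.69-fold (1.67 to 1.72) above WT in the Cyp27a1 KO and 1.64-fold (1.61 to 1.66) in the DKO. Sardh, which demethylates sarcosine, stood at 844, 1117, 981 and 972 CPM, highest in the Cyp27a1 KO, and its DKO and Cyp3a KO values lay within 1.01-fold of each other. Bhmt shares 29.8% of its transcript sequence with Gm5096, which held 15.0, 25.3, 17.9 and 15.5 CPM, and 11.0% of Bhmt2 occurs in Ercc6l. On TPM, Bhmt was 22.6, 32.4, 24.1 and 24.7 times as abundant as Bhmt2.

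Transsulfuration held 2 of the called enzymes, and they differed in opposite directions. Cbs, which condenses homocysteine with serine (chr17:31608894-31637238, minus strand), stood at 384, 319.7, 410.1 and 154 CPM, and the DKO was the low library. It was 2.50-fold (2.43 to 2.56) below WT, 2.67-fold (2.60 to 2.74) below the Cyp3a KO and 2.08-fold (2.03 to 2.14) below the Cyp27a1 KO, while both single knockouts were within 1.20-fold of WT. With library totals the difference from the Cyp27a1 KO had a log2 size under the rule (-0.94), as it had on TPM (-0.87). The difference from WT was also under it on TPM, at -0.92. On TPM recentred on the median gene both differences passed the rule, that from WT at -1.25. Cth, which cleaves cystathionine to cysteine (chr3:157894248-157925077, minus strand), stood at 417, 864, 629 and 829.9 CPM, above WT in all 3 knockouts. Its folds were 2.07-fold (2.04 to 2.11) in the Cyp27a1 KO, 1.51-fold (1.48 to 1.53) in the Cyp3a KO and 1.99-fold (1.96 to 2.02) in the DKO, of which only the first passed the rule, the DKO being just short of it. The Cbs to Cth ratio on TPM was 0.734, 0.308, 0.535 and 0.151, lower in each knockout and lowest in the DKO.

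The 2 enzymes that take cysteine to taurine also stood on opposite sides of WT. Cdo1, which oxidises cysteine, stood at 1793, 1350.1, 1200.2 and 1332 CPM, below WT in each knockout by 1.33-fold, 1.49-fold and 1.35-fold. Csad, which decarboxylates the product toward hypotaurine (chr15:102176999-102204724, minus strand), stood at 275, 713, 309 and 369 CPM, and the Cyp27a1 KO was the high library. It was 2.59-fold (2.54 to 2.65) above WT there, and the DKO was 1.93-fold (1.90 to 1.97) below the Cyp27a1 KO and 1.34-fold above WT. Both of these libraries lack Cyp27a1. The Cdo1 to Csad ratio on TPM was 10.1, 2.94, 6.04 and 5.61, lowest in the Cyp27a1 KO. Of the Csad exonic bases, 7.26% overlap Zfp740 on the opposite strand.

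The branched-chain enzymes differed little between the libraries. Against WT all 8 were above 0 on the log2 scale in the Cyp27a1 KO, with a median of 0.31, and none was called in any comparison. With 8 genes, the lack of calls cannot be set apart from the 1.36 to 6.0% of all measured genes called in each direction. The decarboxylase subunits Bckdha and Bckdhb stood at 235, 253, 238 and 213 CPM and 55.6, 61.4, 54.3 and 56.0 CPM, and Dbt, the acyltransferase core of the same complex, at 81.2, 89.1, 95.6 and 72.5 CPM. These 3 subunits stayed within 1.32-fold of their own lowest library. Bckdha overlaps B3gnt8, on the opposite strand, over 61.7% of its exonic bases, and B3gnt8 held 2.55 to 3.86 CPM.

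The enzymes after the complex had larger differences. Ivd, isovaleryl-CoA dehydrogenase of the leucine route, stood at 199, 283, 247 and 225 CPM, 1.42-fold (1.39 to 1.46) above WT in the Cyp27a1 KO. Mccc1 and Mccc2, the subunits of the leucine carboxylase, stood at 41.7, 66.5, 60.6 and 53.1 CPM and 44.9, 66.5, 60.7 and 53.8 CPM, and both were in the order Cyp27a1 KO, Cyp3a KO, DKO, WT from high to low. Mccc1 was 1.59-fold (1.51 to 1.69) and Mccc2 1.48-fold (1.40 to 1.57) above WT in the Cyp27a1 KO. Pcca and Pccb, the subunits of propionyl-CoA carboxylase used by isoleucine and valine, stood at 61.7, 85.5, 87.2 and 75.7 CPM and 161, 177, 188 and 139.7 CPM. Here the Cyp3a KO was the highest library for both, while the DKO was above WT for Pcca, by 1.23-fold, and below it for Pccb, by 1.15-fold. The ratios of partner subunits on TPM were 0.770, 0.843, 0.863 and 0.832 for Mccc1 to Mccc2, 0.403, 0.411, 0.455 and 0.485 for Pcca to Pccb, 2.91, 3.06, 3.23 and 2.82 for Bckdha to Bckdhb and 1.76, 1.62, 1.36 and 1.84 for Bckdhb to Dbt, the last of these having the widest range.

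Among the aminotransferases the cytosolic and mitochondrial forms of the same enzyme differed. Got1, the cytosolic aspartate aminotransferase (chr19:43499752-43524605, minus strand), stood at 836, 1062, 485 and 422 CPM, low in both libraries with Cyp3a deleted. It was 1.72-fold (1.70 to 1.75) below WT in the Cyp3a KO, 1.98-fold (1.95 to 2.01) below WT in the DKO and 2.52-fold (2.48 to 2.56) below the Cyp27a1 KO in the DKO, which alone passed the rule. Got2, the mitochondrial form, stood at 431, 598, 540.4 and 509 CPM, above WT in each knockout. The Got1 to Got2 ratio on TPM was 2.58, 2.38, 1.15 and 1.14, so the 2 libraries with Cyp3a deleted stood apart from the other 2. These are the same 2 libraries that stood apart in the clock genes and in the erythroid markers, and these and Cyp3a deletion cannot be told apart here. Of the Got2 transcript sequence, 20.3% also occurs in Got2-ps1. Agxt, which removes glyoxylate with alanine as donor, stood at 174, 229.9, 309.7 and 199 CPM, highest in the Cyp3a KO at 1.78-fold (1.73 to 1.83) of WT, and Gpt, the cytosolic alanine aminotransferase, at 242, 287, 273 and 268 CPM, within 1.19-fold.

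Aldh4a1 was the enzyme called in every knockout against WT. It oxidises the products of proline and hydroxyproline breakdown, that of proline to glutamate (chr4:139622866-139649690, plus strand), and stood at 308, 727, 619.7 and 781 CPM. The WT library was the low one, and the folds were 2.36-fold (2.32 to 2.41) in the Cyp27a1 KO, 2.01-fold (1.97 to 2.05) in the Cyp3a KO and 2.54-fold (2.49 to 2.59) in the DKO, the interval of the second reaching below 2. All 3 share the single WT library, and the DKO differed from the single knockouts by only 1.26-fold and 1.07-fold. Aldh4a1 shares 31.03% of its transcript sequence with Gm21969, which held 0 to 15 counts, and 32.5% of its exonic bases overlap another gene. The enzymes before it were lower in the knockouts. Prodh, proline dehydrogenase, stood at 229, 193, 148 and 175 CPM and Prodh2, the hydroxyproline dehydrogenase, at 149, 126, 128 and 76.1 CPM, the latter 1.96-fold (1.89 to 2.04) below WT in the DKO. The Prodh to Aldh4a1 ratio on TPM was 1.18, 0.404, 0.393 and 0.357, so WT stood apart and the 3 knockouts lay close to each other.

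The remaining members break down lysine, glycine and histidine. Aass, the entry enzyme of the lysine route, stood at 638, 562, 381 and 342 CPM, low in the Cyp3a KO by 1.68-fold (1.65 to 1.71) and in the DKO by 1.87-fold (1.83 to 1.90), a split of the libraries like that of Got1. In the glycine cleavage system, Gldc, the decarboxylase, stood at 251, 250.1, 194 and 300.5 CPM, lowest in the Cyp3a KO and highest in the DKO. Amt, the aminomethyltransferase that passes the one-carbon unit to folate, stood at 23.1, 41.2, 41.9 and 39.0 CPM, with WT low and the folds 1.78-fold (1.66 to 1.92), 1.81-fold (1.69 to 1.95) and 1.69-fold (1.57 to 1.82). Uroc1, urocanase of the histidine route, stood at 293, 267, 289 and 324 CPM, and Ftcd, the enzyme that hands the histidine one-carbon unit to folate, at 343, 308, 368 and 269 CPM. In the DKO, Uroc1 was its highest and Ftcd its lowest of the 4 libraries.

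The route medians differed from each other by less than the genes within a route. In the Cyp27a1 KO against WT, the median log2 fold was 0.40 for the sulfur route, 0.31 for the branched-chain route and 0.26 for the aromatic route, against 0.00 for all measured genes, and 29 of the 41 enzymes were above 0. Within the sulfur route, values ran from -0.41 for Cdo1 to 1.37 for Csad. In the Cyp3a KO the medians were 0.05, 0.28 and 0.15 in the same order, against 0.01, with 27 of 41 above 0. In the DKO against WT they were 0.23, 0.09 and 0.08, against -0.01, with 25 of 41 above 0. The branched-chain median in the DKO had the other sign on TPM once the median gene was subtracted, at -0.03. The sulfur route thus had the highest median of the 3 in both libraries with Cyp27a1 deleted, and the lowest in the Cyp3a KO. Its place was the same on TPM. In the DKO against WT the branched-chain median was below the aromatic one on TPM, at 0.30 and 0.44.

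The DKO was also set against each single knockout. Against the Cyp3a KO, the medians were 0.26 for the sulfur route, -0.18 for the branched-chain route and -0.08 for the aromatic route, against -0.02 for all measured genes. Of the 7 methionine and betaine enzymes, 6 were above 0 there. Against the Cyp27a1 KO, they were -0.20, -0.30 and -0.18, against -0.01, and 37 of the 41 enzymes were below 0. TPM itself sets all genes higher in the DKO, with a median of 0.16 in that comparison, and 18 of the 41 were above 0 on it. Counted against the median gene, the enzymes above it were 4 of 41 on counts and 6 of 41 on TPM. Aldh4a1, Afmid, Gldc and Uroc1 were the 4 above 0 on counts.

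**Figure D3:**
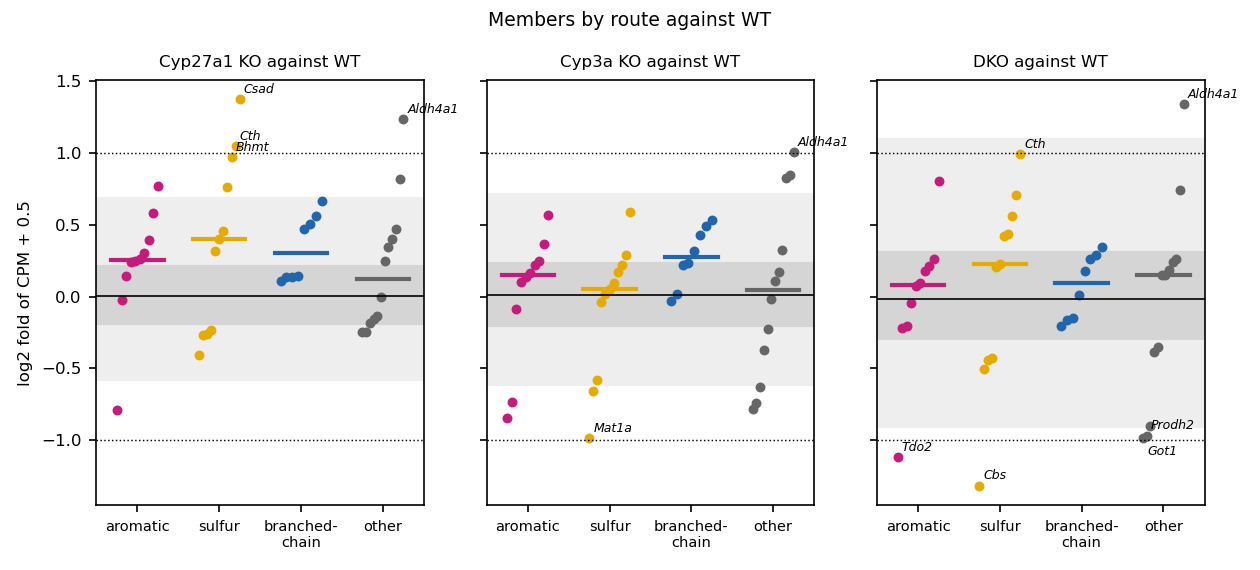
Log2 folds of the enzymes by route in the 3 knockout libraries against WT, 1 point per gene and a coloured bar at the route median; the light grey band spans the 5th to 95th percentile of all measured genes, the darker band the 25th to 75th, the black line is the median gene and dotted lines mark 2-fold. Route medians stay inside the outer band, while Csad and Aldh4a1 in the Cyp27a1 KO and Cbs and Tdo2 in the DKO lie beyond 2-fold.

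The loss of each gene was seen in 2 pairs of libraries that share none, and no enzyme was called the same way in both. For Cyp27a1 the pairs are the Cyp27a1 KO against WT and the DKO against the Cyp3a KO. They called 3 and 2 enzymes, with 0 in common. Over all 11743 measured genes they called 447 and 789, with 178 the same way. By direction alone, 12 enzymes were above 0 in both, 6 below in both and 23 on opposite sides, against 3421, 3661 and 4656 of all measured genes. For Cyp3a the pairs are the Cyp3a KO against WT and the DKO against the Cyp27a1 KO. They called 1 and 2 enzymes, with 0 in common. Over all 11743 measured genes they called 520 and 637, with 157 the same way. Here 2 enzymes were above 0 in both, 12 below and 27 opposite, against 3385, 3417 and 4937 genes. With so few enzymes called, 0 in common cannot be set apart from the all-gene counts for either loss.

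Among the enzymes on the same side of 0 in both pairs were several named above. Bhmt was at 0.97 and 0.50 for loss of Cyp27a1, Dmgdh at 0.76 and 0.42, and Cth at 1.05 and 0.40. Got1 was at -0.78 and -1.33 for loss of Cyp3a and Aass at -0.74 and -0.71, and at a 1.5-fold threshold these were the 2 enzymes called in both Cyp3a pairs. At that threshold the number of all genes called in both was not counted, so 2 of 41 has no background beside it. Of the 41 enzymes, Cbs and Csad had the largest differences between the 2 backgrounds. This difference is the same number whichever loss is taken, as it comes from the same 4 libraries. Loss of Cyp27a1 went with -0.26 for Cbs with Cyp3a present and -1.41 with Cyp3a deleted, and with 1.37 and 0.26 for Csad. With 1 mouse per genotype these differences between backgrounds have no replicate check and were not tested.

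**Figure D4:**
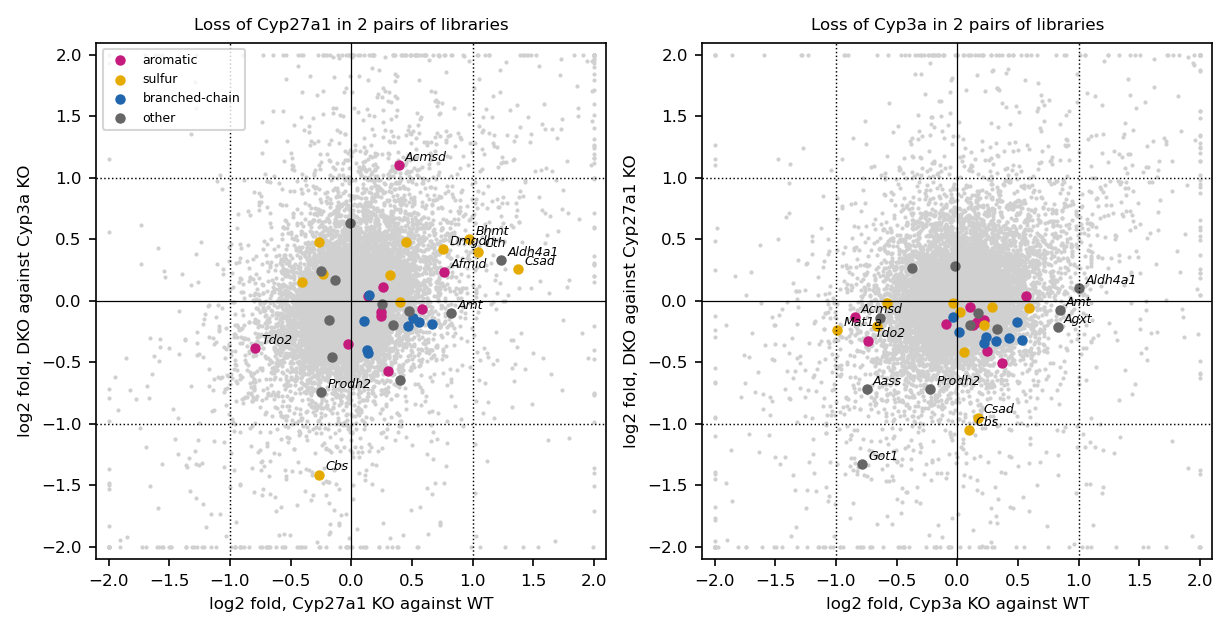
Log2 fold for loss of each gene in the wild-type background (horizontal) against the same loss with the other gene deleted (vertical), for Cyp27a1 and Cyp3a; coloured points are the 41 enzymes by route and grey points all 11743 measured genes, drawn at the edge beyond 2. No enzyme lies past 1 or past -1 on both axes of a panel, and Cbs and Csad lie farthest from the diagonal. An enzyme lies equally far from the diagonal in both panels.

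Other genes of the same pathways, taken from lists that hold none of the 41 enzymes, gave a similar picture for the aromatic and branched-chain routes. Of the 16 further aromatic genes with a row, 14 were measured, and against WT the only call was Ddc, aromatic amino acid decarboxylase, at 43.5, 95.3, 66.2 and 49.2 CPM and 2.19-fold (2.08 to 2.31) higher in the Cyp27a1 KO. The DKO against the Cyp3a KO gave 1 lower, Kyat1, a kynurenine aminotransferase named after its values were seen, at 86.7, 64.5, 112 and 53.2 CPM. Of 18 further branched-chain genes 17 were measured and 0 were called in any of the 5 comparisons. Over all measured genes 1.36 to 6.0% were called in each direction of a comparison. The small counts in these 2 lists cannot be set apart from that. The medians of the further branched-chain genes were 0.35, 0.18 and 0.15 in the 3 knockouts against WT, and those of the aromatic genes 0.24, 0.28 and 0.18.

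Several of the further sulfur and one-carbon genes were called, and all 24 analysed were measured. In the Cyp27a1 KO 1 was called higher and 0 lower, in the Cyp3a KO 0 higher and 1 lower, and in the DKO 3 higher and 1 lower, with medians of 0.33, 0.28 and 0.41. Over all measured genes 2.44, 2.56 and 6.0% were called higher and 1.36, 1.86 and 4.02% lower in these comparisons, and counts this small cannot be set apart from them. Nnmt, which spends S-adenosylmethionine on nicotinamide, stood at 263, 236, 124 and 82.1 CPM, 2.12-fold (2.06 to 2.19) and 3.20-fold (3.09 to 3.31) below WT in the Cyp3a KO and the DKO. It was thus low in the Cyp3a KO and the DKO, as Got1 and Aass were. Those libraries also stood apart in the clock genes and the erythroid markers, which cannot be told apart from Cyp3a deletion here.

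Mat2a, the form of the S-adenosylmethionine synthetase found outside the adult liver, stood at 53.5, 61.3, 64.4 and 136 CPM, and only the DKO stood apart, 2.54-fold (2.43 to 2.66) above WT. With Mat1a lower in each knockout, the Mat1a to Mat2a ratio on TPM was 76.9, 58.1, 33.2 and 18.7, lowest in the DKO. Gamt, which makes creatine with S-adenosylmethionine as methyl donor, stood at 57.2, 120.5, 99.0 and 131 CPM, 2.11-fold (2.01 to 2.21) above WT in the Cyp27a1 KO and 2.30-fold (2.20 to 2.40) in the DKO. Chdh, which oxidises choline on the way to betaine and was named after its values were seen, stood at 126, 245, 224 and 258 CPM, above WT in each knockout and past the rule in the DKO at 2.05-fold (1.99 to 2.12). Against the single knockouts, the DKO had 1 of the 24 higher and 0 lower than the Cyp3a KO, and 1 higher and 1 lower than the Cyp27a1 KO. Over all measured genes the shares higher and lower were 4.02 and 2.70% against the Cyp3a KO, and 2.84 and 2.59% against the Cyp27a1 KO.

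Of 24 further amino acid enzymes 21 were measured, with 2 higher and 1 lower in the Cyp27a1 KO, 2 higher and 1 lower in the Cyp3a KO, and 2 higher and 2 lower in the DKO, beside the same shares of all measured genes (2.44, 2.56 and 6.0% higher; 1.36, 1.86 and 4.02% lower). Oat, ornithine aminotransferase, which makes the same semialdehyde that Aldh4a1 oxidises, stood at 572, 1988, 1678 and 1883 CPM. It was 3.48-fold (3.43 to 3.53), 2.93-fold (2.89 to 2.98) and 3.29-fold (3.25 to 3.34) above WT, so WT was again the single low library, as for Aldh4a1 and Amt. Sdsl, a serine dehydratase-like enzyme, stood at 35.6, 14.5, 7.85 and 6.50 CPM and Sds, serine dehydratase, at 422, 336, 253 and 175 CPM, both highest in WT and lowest in the DKO. Sdsl was 2.46-fold (2.25 to 2.69), 4.54-fold (4.06 to 5.08) and 5.48-fold (4.88 to 6.17) below WT in the 3 knockouts, and Sds 2.41-fold (2.35 to 2.47) below WT in the DKO. Asns, asparagine synthetase, stood at 3.99, 16.9, 9.81 and 6.98 CPM, 4.23-fold (3.60 to 4.98) above WT in the Cyp27a1 KO and 2.46-fold (2.07 to 2.93) in the Cyp3a KO. Agxt2, a mitochondrial glyoxylate aminotransferase, stood at 101, 198, 159 and 221 CPM, 2.19-fold (2.11 to 2.26) above WT in the DKO. The median over the 21 was 0.07, 0.19 and 0.03 against WT, near the 0.00, 0.01 and -0.01 of all measured genes in 2 of the 3 comparisons.

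**Figure D5:**
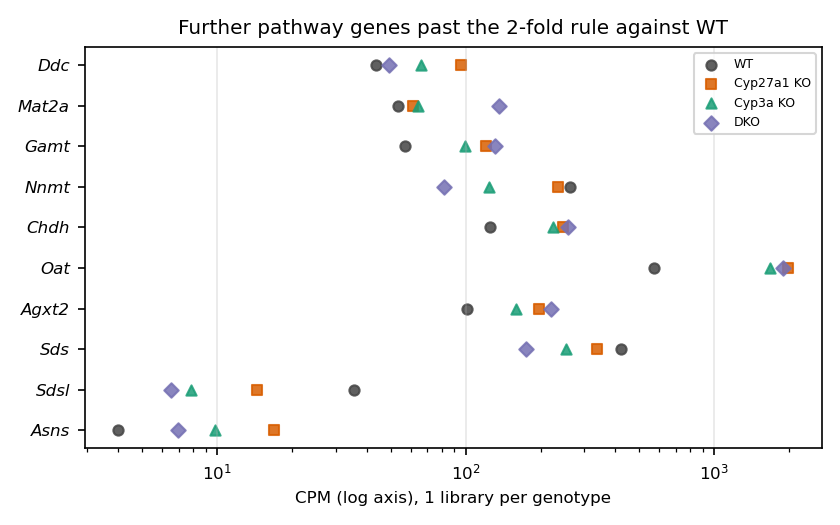
CPM on a log axis of the pathway genes outside the 41 enzymes that were called against WT, 1 point per library with the same colours and shapes as for TPM. Oat has its WT point below the other 3, Nnmt has its Cyp3a KO and DKO points below the other 2, and Mat2a has its DKO point above the other 3.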

How the data were processed

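Livers of 4 male mice, 1 for each genotype in the labels, were kept in RNAlater, and RNeasy RNA was made into TruSeq v2 libraries, per the labels' protocols. Per the submitters' processing notes, Trimmomatic 0.33, HISAT2 2.0.5, kallisto 0.43.1 and mm10 were used, with no roles stated. For the annotation, the summing to genes and the use of strand in counting, the sources used here give no statement. Estimated counts for each symbol, deposited by the authors without scaling and 57.7% of them whole, were rounded here. The authors also deposited TPM, used here for levels between genes and as an alternative. Sample columns of the 2 tables were matched by name (correlation of deviations at least 0.943, at most 0.0421 between different names). The tables held 1 row with no gene name, at 0 counts, which was dropped.

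Counts were scaled by TMM (edgeR 4.0.16, R 4.3.3; factors 0.937, 0.996, 0.994 and 1.08). Log2 folds are of CPM plus 0.5, which understates low genes; fold ratios are of CPM alone. No test across genes was run: with 1 library per genotype, the only residual is the departure from additive effects of the 2 deletions. Calls needed 2-fold, a mean of 1 CPM and an exact Clopper-Pearson 95% interval of the count ratio, conditional on its sum, that excluded 1. As no molecular identifiers were used, read counts are not counts of independent molecules. The rule was run on simulated counts with planted folds and counting error only, which cannot show how it behaves with spread between mice. The 41 enzymes and all lists were chosen with earlier results of these data known. Named are all 41, the Cyp27a1 and Cyp3a11 checks, and of each pathway list up to 4 called genes with the largest folds in each comparison with WT. Symbols absent from the tables under an alternative name (Ccbl1, Ccbl2, Sqor, Mmut) were found under the other name. One pathway gene is not reported here. Coordinates, overlaps and runs of 31 bases shared between transcripts come from GENCODE M21 (GRCm38), and all 41 symbols matched. Alternatives were library totals, DESeq2 1.42.0 size factors, TPM, no filter, a mean of 5 CPM, a pseudocount of 0.1 or 2, calls at 1.5-fold, calls without the interval and, chosen after seeing the data, TPM recentred on the median gene. Python 3.11.15 with numpy 2.4.6, scipy 1.17.1, pandas 2.3.3 and matplotlib 3.10.9 was used.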

Additional observations from a re-analysis of the deposited data

Results flagged for a closer look

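For 3 enzymes the loss of a gene went with opposite directions in its 2 pairs of libraries, each at least 1.25-fold in size with a counting interval that excluded 1. Many more were on opposite sides at smaller sizes. The difference between the pairs was not tested. For each enzyme it is the same number whichever loss is taken. Loss of Cyp27a1 went with a log2 fold of 0.40 for Agxt with Cyp3a present and -0.64 with Cyp3a deleted, a difference of -1.04. Loss of Cyp3a went with 0.37 and -0.51 for Kynu, a difference of -0.87, with the second value from the pair in which Cyp27a1 was deleted. For Mccc1 the same loss went with 0.53 and -0.32, a difference of -0.86.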

How the results depend on the processing

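No paired analysis was possible because the labels give no number, litter or batch that ties libraries to each other. With 1 library per genotype, leaving one out removes a group. No called enzyme changed direction under any alternative. With library totals the DKO against WT had 3 enzymes higher (Afmid, Cth, Aldh4a1) and 1 lower (Cbs), and the DKO against the Cyp27a1 KO had 1 lower (Got1). With DESeq2 size factors the DKO against WT had 2 higher (Cth, Aldh4a1). On TPM the Cyp27a1 KO had 5 higher (Bhmt, Cth, Csad, Aldh4a1, Amt), the DKO against WT 5 higher (Afmid, Dmgdh, Cth, Aldh4a1, Amt) and 0 lower, and the DKO against the Cyp27a1 KO 1 lower (Got1). TPM recentred on the median gene, added after seeing the data, gave 2 higher (Cth, Aldh4a1) and 2 lower (Tdo2, Cbs) in the DKO against WT. Library totals called 975 of all genes higher and 356 lower in the DKO against WT, and 264 lower against the Cyp27a1 KO. DESeq2 size factors called 727 higher in the DKO against WT, and recentred TPM 683, beside 705 in the main results. TPM called 446 higher in the Cyp27a1 KO against WT, and 1280 higher and 268 lower in the DKO against WT. In the DKO against the Cyp27a1 KO it called 247 lower. The small enzyme counts were not tested against these all-gene counts. At 1.5-fold the Cyp27a1 KO had 8 enzymes higher and 1 lower, the Cyp3a KO 4 and 7, the DKO 5 and 5 against WT, 2 and 3 against the Cyp3a KO, and 5 lower against the Cyp27a1 KO. Over the 11743 measured genes that rule gave 809 and 583, 867 and 665, 1599 and 1232, 1126 and 873, and 776 lower. It also left 2 enzymes called in both pairs for loss of Cyp3a, for which all genes were not counted. The cause was not tested for the scaling changes; the 1.5-fold rule admits more genes by construction.

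Medians relative to all genes moved as follows. On TPM the Cyp27a1 KO had 0.3581 for the sulfur route and 0.3017 for all 41, the Cyp3a KO 0.4487 for the branched-chain route and 0.1495 for all 41. There were also -0.0293 for the branched-chain route and 0.1209 for all 41 in the DKO against WT, and 0.008 for the aromatic route in the DKO against the Cyp3a KO. On recentred TPM the same 7 were 0.3455, 0.2896, 0.4411, 0.1412, -0.0472, 0.1 and -0.0076. Without a filter the sulfur median in the DKO against WT was 0.229, and with a mean of 5 CPM it was -0.1702 in the DKO against the Cyp27a1 KO. Over all alternatives, 101 counts of enzymes stayed within 1.5 times the value given and 19 did not; of the medians 144 stayed within, and 16 left, the range spanned by the medians of the enzymes' lower and upper counting bounds. The branched-chain median in the DKO against WT changed sign on both TPM scales. TPM also moved the share of calls over all genes that were higher, from 64.2% to 77.6% in the Cyp27a1 KO and from 59.9% to 82.7% in the DKO, both against WT; for the DKO library totals gave 73.3%. Every enzyme had at least 1077 counts in each library, so counting error was small beside the 2-fold rule.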
